A study of Ciona robusta with 7 samples.

Results

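The cells described here were 70 of 315 single cells of the *Ciona robusta* heart and pharyngeal muscle lineage that carried transcripts of at least 1 of FOXF1/2, MSX1/2/3 and THBS3/4 (KH.C6.164), with little heart myosin and tropomyosin; 20 of them had reads of all 3. They were chosen by measured values of the same libraries. The summed level of those 3 genes was at least 200 CPM, where CPM is the read count of a gene divided by all gene reads of the cell and multiplied by 1000000, and the sum of MYH1/2 and TPM1/2 (KH.C3.661) was under 1000 CPM. They are called FOXF/MSX/THBS cells below. They were compared with the 245 other cells, and with the 40 of these that reached 1000 CPM of MYH1/2 and TPM1/2 (KH.C3.661), called heart muscle cells. The 205 cells left over are called the remaining cells.

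All cells came from juveniles at stage 38, grown at 18 °C in agarose-coated dishes. Cells positive for Mesp, the labels' name for progeny of the trunk ventral cells (TVC), were isolated by fluorescence-activated cell sorting, and polyadenylated RNA was read by SMART-seq2, which covers whole transcripts. The 7 samples were 7 plates, numbered 2 to 8, of the same sort, stage and treatment, so plates are the only replicates. The labels do not say whether plates came from separate animals, so p-values measure the spread between plates, which may be technical.

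*Ciona* is a tunicate, a close relative of vertebrates, in which heart and pharyngeal muscles share the trunk ventral cells as progenitors. NKX2-3 (the Nk4 gene), GATA4/5/6 and HAND/1/2 are regulators of the heart branch, and EBF1/2/3/4, the COE factor, drives the pharyngeal muscle branch. FOXF1/2 is a forkhead factor of the migrating progenitors, MSX1/2/3 a homeobox factor that answers to BMP signals in many animals, and THBS3/4 a thrombospondin, a secreted glycoprotein of the extracellular matrix.

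Of 672 barcodes, 96 on each plate, 315 held at least 1000 genes above 0. FOXF/MSX/THBS cells were shallower than the rest, with a median of 85072 reads and 1792 genes against 172272 reads and 2485 genes in all other cells and 129602 reads in heart muscle cells. No doublet caller was run, and 9 heart muscle cells also had a marker sum of 200 CPM or more. The plates used the same set of barcode sequences: 313 of the 315 cells shared one with a kept cell of another plate, and 29 of the 70 FOXF/MSX/THBS cells with another such cell. Pairs of the latter with the same barcode had a median correlation of log2 CPM of 0.41 (16 pairs), against 0.39 for different barcodes (1823 pairs), and all were treated as separate cells.

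The FOXF/MSX/THBS cells made up 22.2% of all cells (exact Clopper-Pearson 95% interval 17.8 to 27.2%, counting error only). Plates 2 to 8 held 2, 8, 18, 12, 3, 26 and 1 of them, or 9.52%, 28.6%, 21.2%, 14.8%, 17.6%, 37.1% and 7.69% of a plate's cells (mean 19.5% ± 10.5, SD, n = 7 plates). Plate 7 was highest and plate 8, with 13 cells in all, lowest. Plate 7 (25.9 to 49.5%) and plate 5 (7.90 to 24.4%) were the pair of larger plates whose intervals did not overlap.

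Few cells lay near the marker threshold, with 4 of the 70 at 200 to 400 CPM and 5 of the remaining cells at 100 to 200 CPM. The lowest marker sums inside were 267, 282, 286 and 335 CPM, and the highest outside 183, 162, 156 and 119 CPM. The median was 1525 CPM in the FOXF/MSX/THBS cells and the highest 8810 CPM, whereas 82 of the 205 remaining cells had none of these reads. More cells lay near the muscle limit: the highest cells inside reached 948 and 936 CPM of MYH1/2 and TPM1/2 (KH.C3.661), the lowest outside with a marker sum over the threshold had 1086 and 1191 CPM, and 19 of the 70 lay at 300 CPM or more.

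**Figure D1:**
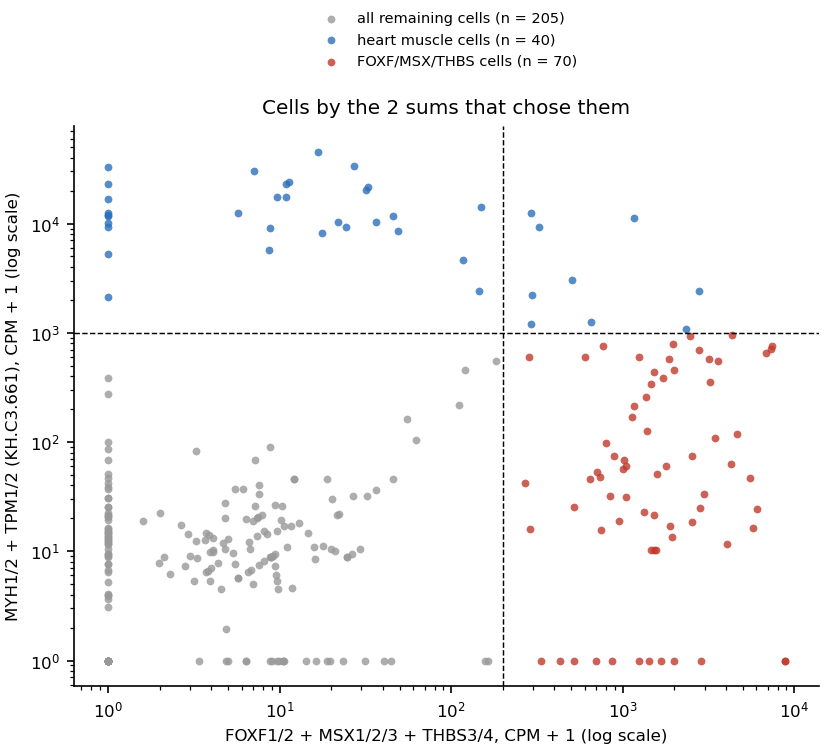
Each point is 1 cell, placed by the summed CPM of the 3 marker genes (x axis, log scale, CPM + 1) and of the 2 muscle genes (y axis, log scale, CPM + 1), with the limits as dashed lines. The 70 FOXF/MSX/THBS cells (red) lie right of the limit on the x axis, and 19 of them at 300 CPM or more on the y axis, below the 40 heart muscle cells (blue); the 205 remaining cells are grey.

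The 3 markers were not carried alike. They chose the cells, so their levels are given as a description. THBS3/4 had reads in 67 of the 70 cells, with a median of 1263 CPM, a highest value of 8614 CPM, and 200 CPM or more in 61 cells. MSX1/2/3 had reads in 44 cells (mean 336 CPM, 20 cells at 200 CPM or more) and FOXF1/2 in 31 (mean 170 CPM, 16 cells at 200 CPM or more). Most of the choice therefore rested on THBS3/4. In the remaining cells THBS3/4 had reads in 114 of 205, but at a mean of 7.72 CPM, while FOXF1/2 had reads in 17 and MSX1/2/3 in 20.

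All 3 markers were read in 20 of the cells, THBS3/4 with MSX1/2/3 in 22, THBS3/4 with FOXF1/2 in 10 and THBS3/4 alone in 15. The number of markers seen moved with depth: cells with all 3 had a median of 138532 reads and those with THBS3/4 alone 56763. Its part in the counts was not tested. When the rule was rebuilt on FOXF1/2 and MSX1/2/3 only, it took 34 cells, and THBS3/4, which then had no part in the choice, had reads in 31 of them (91.2%) at a mean of 1480 CPM. In the 241 cells not taken by FOXF1/2 and MSX1/2/3 and under the same muscle limit, 62.2% had THBS3/4 reads, at a mean of 314 CPM. These 241 cells include the FOXF/MSX/THBS cells that only THBS3/4 brought over the threshold. In the 205 remaining cells, 55.6% had THBS3/4 reads, at a mean of 7.72 CPM.

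By plate, the THBS3/4 level of the summed FOXF/MSX/THBS cells was 683, 1789, 3069, 3042, 380, 1266 and 1053 CPM in plates 2 to 8. The MSX1/2/3 level was 424, 581, 113, 226, 65.7, 356 and 196 CPM. FOXF1/2 stood at 114 to 164 CPM in plates 3 to 7 and had no read in plates 2 and 8, which held 2 cells and 1 cell. By summed reads plates 4 and 5 were thus high in THBS3/4 and plate 3 high in MSX1/2/3. By mean over cells plate 3 was highest in both, with THBS3/4 at 3390 CPM and MSX1/2/3 at 874 CPM. The cell mean of THBS3/4 was 1792 CPM in plate 4 and 2690 CPM in plate 5.

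The heart regulators were present in these cells, unevenly. GATA4/5/6 had reads in 50 of the 70 cells, NKX2-3 in 29 and HAND/1/2 in 28. With a cut of 50 CPM, 51 cells carried at least 1 of the 3, 18 carried a pair, 2 all 3, and 19 none. After thinning every cell to 20000 reads (67, 38 and 199 cells deep enough), NKX2-3 reads were found in 34.3% of FOXF/MSX/THBS cells, 68.4% of heart muscle cells and 3.52% of the remaining cells. The same shares of GATA4/5/6 were 62.7%, 86.8% and 5.53%, and of HAND/1/2 28.4%, 21.1% and 3.02%. Without thinning, 41.4%, 72.5% and 19.0% of cells had NKX2-3 reads.

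GATA4/5/6 was the heart regulator that passed the test against all other cells. Its level in plates 3, 4, 5 and 7 was 230, 198, 188 and 243 CPM in FOXF/MSX/THBS cells and 11.8, 31.4, 16 and 118 CPM in the others (log2 fold change 2.81 ± 0.57, SE; edgeR adjusted p = 0.0303). The sides did not overlap, but the call was lost without plate 3, 4 or 5, without the plate as replicate block (2.10, adjusted p = 0.169), after thinning to 20000 reads (1.24, adjusted p = 0.27) and with a muscle limit of 300 CPM (2.42, adjusted p = 0.114). NKX2-3 stood at 71.4, 206, 70.2 and 157 CPM against 24.8, 24.7, 57.8 and 161 CPM (1.05 ± 0.58, adjusted p = 0.561), and plate 7 went the other way by a small margin.

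HAND/1/2 stood at 67.5, 46.2, 25.2 and 45.8 CPM against 7.64, 1.22, 5.52 and 18.1 CPM (2.79 ± 0.93, adjusted p = 0.227), with no overlap and no call. The other side of this comparison contains the heart muscle cells, which carry the same factors. Against the remaining cells only, all 3 passed: GATA4/5/6 at 5.86, HAND/1/2 at 6.71 (adjusted p = 0.00425) and NKX2-3 at 3.77 (adjusted p = 0.0422). TBX2/3, a T-box repressor, was lower there at -3.78 (adjusted p = 0.0289), and at -3.61 it missed the threshold against all other cells (adjusted p = 0.0703). Against heart muscle cells none of the 5 core heart factors tested passed, where 1.55% of all genes did, so this count is near the background. All 5 values were below 0 (median -0.83 against 0.52 over all genes), and the summed level of the list was 486, 374 and 487 CPM against 953, 1129 and 967 CPM in plates 4, 5 and 7, without overlap. In this comparison the values of single factors included NKX2-3 at -1.86 ± 0.58 (adjusted p = 0.14) and GATA4/5/6 at -0.83 ± 0.54 (adjusted p = 0.96).

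The working name of the cells, non-muscle heart mesoderm, held in part against these measurements. Heart regulators were above the remaining cells, and 19 cells had none of the 3 at 50 CPM. Muscle transcripts were in sum below those of heart muscle cells but not absent. TNNT1/2/3, the troponin that anchors the complex to tropomyosin, had reads in 69 of the 70 cells. Its median was 159 CPM and its highest value 3948 CPM. The 48 sarcomere genes other than the pair used for choosing summed to 9213 ± 1126 CPM, against 66745 ± 12292 CPM in heart muscle cells and 35703 ± 9421 CPM in the remaining cells (SD, n = 4 plates). Cell medians in FOXF/MSX/THBS and remaining cells were 159 and 175 CPM for TNNT1/2/3 and 292 and 296 CPM for MYL10/2/5/7. They were 2247 and 186 CPM for TNNI1/2/3 and 2.67 and 136 CPM for LDB3. For MYL1/3/4/6 they were 1731 and 1100 CPM, and for NEB (KH.C1.479) 9.14 and 12.1 CPM. Medians thus lay on either side of the remaining cells. The sums thus do not give the level of a typical remaining cell. EBF1/2/3/4 of 100 CPM or more was found in 5 of the 70 cells, in 1 of 40 heart muscle cells and in 142 of 205 remaining cells. Leaving those 5 cells out, an alternative chosen after seeing the data, gave 69 higher and 112 lower genes in place of 70 and 111.

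**Figure D2:**
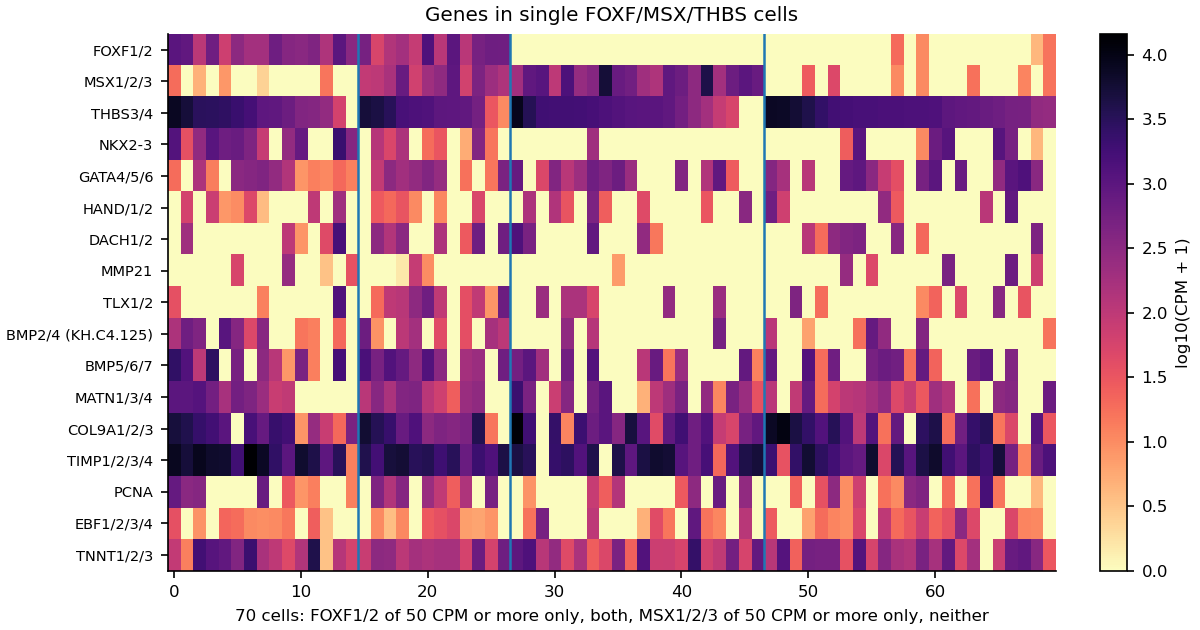
Each column is 1 of the 70 FOXF/MSX/THBS cells and each row a gene, coloured by log10(CPM + 1), with vertical lines between cells with FOXF1/2 only at 50 CPM or more (15 cells), both FOXF1/2 and MSX1/2/3 (12), MSX1/2/3 only (20) and neither (23). TIMP1/2/3/4 and COL9A1/2/3 run through all groups, and NKX2-3 lies mostly in the cells with FOXF1/2.

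The cells were not uniform. Of the 27 cells with FOXF1/2 at 50 CPM or more, 15 (55.6%) also had NKX2-3 at that level, against 6 of the other 43 (14%). That difference had the same direction in plates 3, 4, 5 and 7 (33.3 against 0%, 66.7 against 33.3%, 25 against 12.5% and 69.2 against 7.69%). MSX1/2/3 went the other way, with NKX2-3 in 5 of 32 carriers (15.6%) and in 16 of 38 non-carriers (42.1%). In plates 3, 4, 5 and 7 these shares were 0 against 33.3%, 14.3 against 63.6%, 20 against 14.3% and 25 against 50%, so plate 5 did not follow. Across the 70 cells Spearman's rho with NKX2-3 was 0.46 for FOXF1/2 and -0.38 for MSX1/2/3. The markers were part of the rule and the cells share 7 libraries, so these are descriptions. Depth moved with FOXF1/2 too. Cells with FOXF1/2 and THBS3/4 reads had a median of 106286 reads without MSX1/2/3 and 138532 with it. In cells with THBS3/4 but no FOXF1/2 read these medians were 56763 and 71818.5. The part of depth in these shares was not tested.

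BMP2/4 (KH.C4.125), a BMP ligand, was found at 50 CPM or more in 11 of 27 FOXF1/2 carriers and 7 of 43 others. TLX1/2, a homeobox factor, was found in 13 of 32 MSX1/2/3 carriers and 3 of 38 others. EBF1/2/3/4 at that level was found in none of 27 FOXF1/2 carriers and 8 of 43 others. GATA4/5/6 and the collagen COL9A1/2/3 were less uneven: 18 of 32 MSX1/2/3 carriers and 20 of 38 others had GATA4/5/6, and 22 of 27 FOXF1/2 carriers and 33 of 43 others had COL9A1/2/3. NKX2-3 and GATA4/5/6 were both present in 13 cells, and neither in 24.

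Genes whose level rose and fell most closely with the marker sum within the 70 cells were COL9A1/2/3 (Spearman's rho 0.53), the fibrillar collagen COL1A1/2 (0.52), the sodium-dependent sugar transporter SLC5A1/2/4/9 (0.51), ZNFX1 (KH.C3.223) (0.46), the matrilin MATN1/3/4 (0.44) and LECT1 (0.43). These were the first 6 of 3834 named genes read in at least 20% of the 70 cells, and rho of the marker sum with the reads per cell was -0.07. All values come from the same libraries.

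To ask which other transcripts separated these cells, reads were summed per plate and side. The sums were compared within plates 3, 4, 5 and 7, which had at least 5 cells on each side. Single deep cells weigh in these sums. The deepest FOXF/MSX/THBS cell gave 193935 of 518175 reads in plate 3 and 1618664 of 2987479 in plate 4. In plates 5 and 7 it gave 761671 of 1666901 and 1905560 of 6447721. Genes that go with the 3 markers cell by cell must differ here to some degree, because the markers chose the cells. The quasi-likelihood test of edgeR, adjusted over 8596 genes by the Benjamini-Hochberg method, called 70 genes higher (0.814%) and 111 lower (1.29%) in FOXF/MSX/THBS cells, together 2.11%. An unadjusted p under 0.05 was reached by 981 genes. Of the 181 called, 179 changed the same way in all 4 plates. Over all genes, plate values of the sides did not overlap in 4.42% on the higher and 6.74% on the lower side. The median log2 fold change of all genes was -0.30.

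Of 66 matrix genes tested 8 rose, 5 fell and 53 did not pass, where 0.814% of all genes were called higher and 1.29% lower, with a median log2 fold change of 0.19 against -0.30 over all genes. The summed level of all 181 listed matrix genes, tested or not and without THBS3/4 (KH.C6.164), was 9537, 17959, 13049 and 13786 CPM in plates 3, 4, 5 and 7, against 5100, 7168, 4337 and 4714 CPM in all other cells, with no overlap. TIMP1/2/3/4, COL9A1/2/3 and TIMP4, given below, hold a large part of this difference. Of the 181 listed genes 44 had no read in FOXF/MSX/THBS cells.

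Among the matrix genes that rose were 3 collagens. COL9A1/2/3, a fibril-associated collagen of cartilage in vertebrates, stood at 1880, 2302, 2244 and 988 CPM in FOXF/MSX/THBS cells and 9.23, 105, 149 and 41.5 CPM in the others (log2 fold change 4.93 ± 0.55, SE; adjusted p = 0.000899). Even the lowest plate was above every plate of the other side, and the call held without any one plate. COL1A1/2 rose from 8.82 ± 7.36 to 172 ± 80.9 CPM (SD, n = 4 plates; 4.49 ± 0.59, adjusted p = 0.00243). COL11A1/2, a minor fibrillar collagen, rose from 120 ± 16.2 to 640 ± 122 CPM (2.29 ± 0.33, adjusted p = 0.00487). All 3 were higher than in all other cells in 4 of 4 plates without overlap. Heart muscle cells carried COL11A1/2 too, with a cell median of 161 CPM. That median was 140 CPM in FOXF/MSX/THBS cells and 11.5 CPM in the remaining cells. With a muscle limit of 300 CPM the calls of COL1A1/2 (2.64, adjusted p = 0.158) and COL11A1/2 (1.88, adjusted p = 0.0709) were lost, and both were also lost with cells of 2000 genes or more.

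Inhibitors of matrix proteases rose as well. TIMP1/2/3/4, a tissue inhibitor of metalloproteinases, stood at 1748, 1956, 4319 and 4554 CPM against 92.6, 99.4, 360 and 243 CPM in plates 3, 4, 5 and 7 (3.98 ± 0.26, adjusted p = 2.89e-05). TIMP4, a second gene of the family, stood at 531, 664, 1299 and 1813 CPM against 85.0, 75.1, 75 and 185 CPM (3.19 ± 0.37, adjusted p = 0.00112). Plates 5 and 7 were the high plates of both genes, and neither gene's sides overlapped. TIMP1/2/3/4 reads were found in 92.5% of the thinned FOXF/MSX/THBS cells, 71.1% of the heart muscle cells and 40.7% of the remaining cells.

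MATN1/3/4, an adaptor of collagen fibrils, was even across plates at 232, 277, 293 and 293 CPM against 39.8, 13.5, 10.5 and 49.0 CPM (3.46 ± 0.57, adjusted p = 0.00977), and its call was lost without plate 4. SPARC (KH.C14.398), a collagen-binding matricellular protein, rose from 118 ± 25.4 to 531 ± 142 CPM (2.04 ± 0.37, adjusted p = 0.0171), a call lost without plate 4 or 5. Its cell median was 343 CPM in FOXF/MSX/THBS cells, 339 CPM in heart muscle cells and 18.9 CPM in the remaining cells. LECT1, known in vertebrates as chondromodulin, rose from 15.2 ± 13.0 to 271 ± 129 CPM (4.54 ± 0.51, adjusted p = 0.000942).

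ECM2, SVEP1 (KH.C5.620), CSMD1/2/3 and EMR1/2/3 had the highest fold changes among the named genes called higher, between 6.37 and 8.52. CSMD1/2/3 was read in 46 of the 70 cells, 13 of 40 heart muscle cells and 27 of 205 remaining cells. ECM2 rested on 329 reads against 22, of which 90.9% of the latter came from 1 cell, and its call was lost without plate 3 or 4. SVEP1 (KH.C5.620), a large secreted adhesion protein, stood at 666, 120, 289 and 493 CPM in plates 3, 4, 5 and 7 against 0.637, 7.68, 0.424 and 27.5 CPM and lost its call without plate 5. EMR1/2/3, an adhesion receptor coupled to G proteins, stood at 85.0 ± 59.1 against 1.04 ± 0.94 CPM. The secreted SCUBE1/2/3 rose by 4.93 ± 0.86 and lost its call without plate 4 or 5.

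Other matrix genes were lower. COL6A1/2/3/5/6, a microfibrillar collagen, stood at 32.8, 50.5, 12 and 19.5 CPM against 1388, 2440, 570 and 408 CPM (-5.33 ± 0.35, adjusted p = 2.89e-05) and was among the calls that held in all 19 alternatives. The laminin chain LAMB1/2 (-4.66), the hemicentins HMCN1 (KH.C4.506) (-4.47) and HMCN1 (KH.C6.198) (-5.23), and SPARC (KH.C13.31) (-3.91) were lower too. The LAMB1/2 call was lost without plate 4 or 5, that of HMCN1 (KH.C4.506) without plate 3, 4 or 5, and that of HMCN1 (KH.C6.198) without plate 3, 4 or 7. The 2 SPARC genes thus differed in opposite directions.

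**Figure D3:**
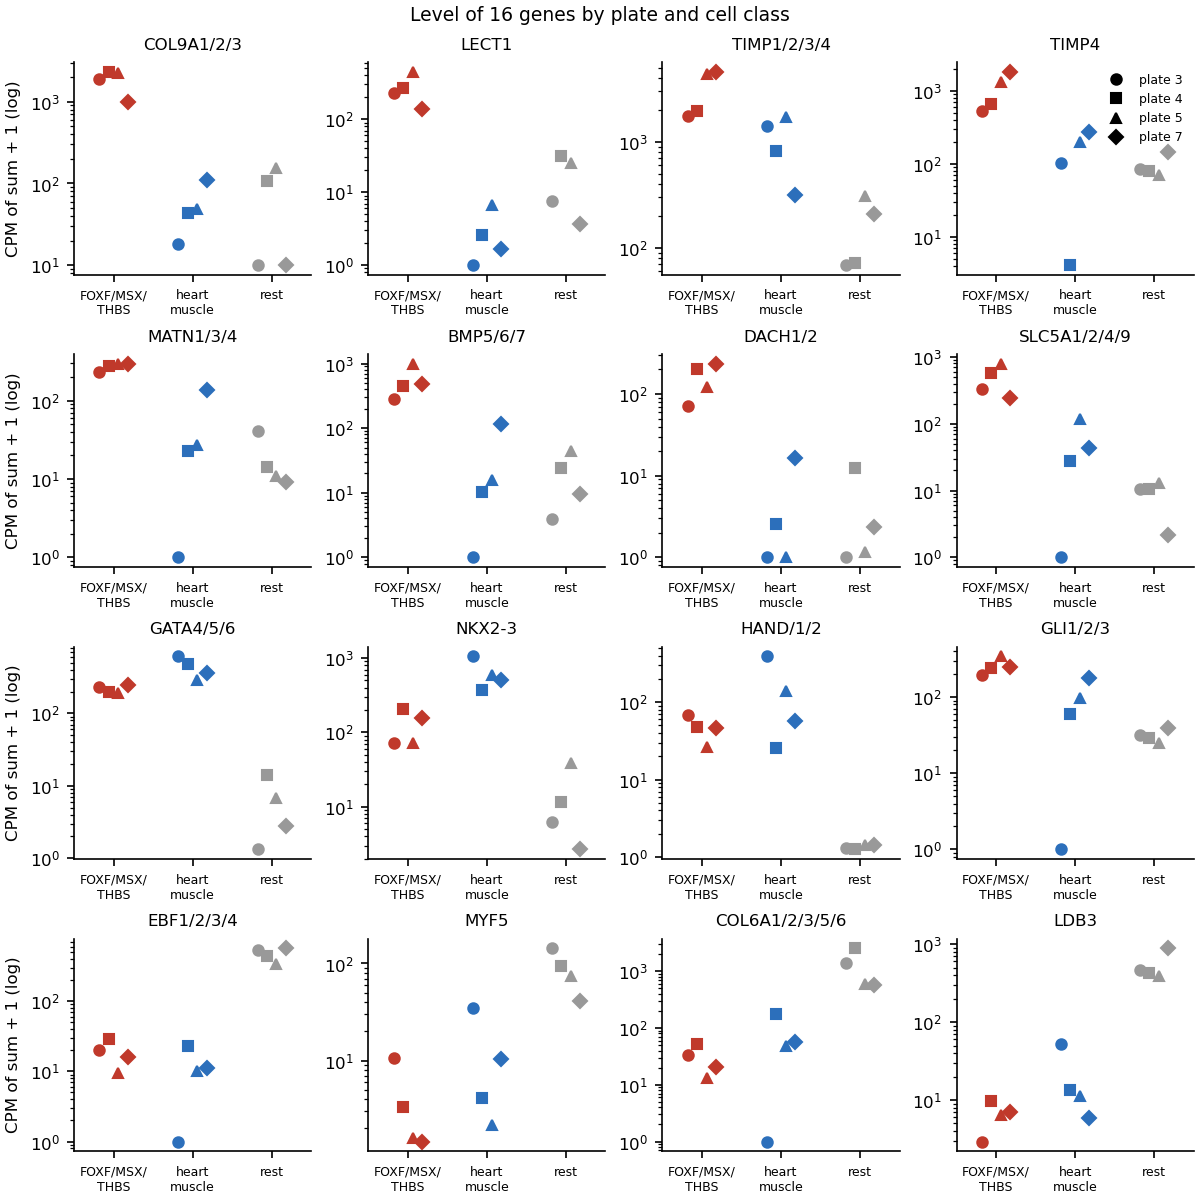
Level of 16 genes (CPM + 1 of summed reads, log scale) by plate (symbols) in FOXF/MSX/THBS cells (red), heart muscle cells (blue, 2 cells in plate 3) and remaining cells (grey). Collagen, TIMP, matrilin, BMP5/6/7, DACH1/2 and transporter genes are highest in the red symbols, heart regulators are shared by red and blue, and EBF1/2/3/4, MYF5, COL6A1/2/3/5/6 and LDB3 are highest in the grey.

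BMP ligands and modulators differed gene by gene. BMP5/6/7, a ligand of the family, stood at 280, 455, 981 and 488 CPM in plates 3, 4, 5 and 7 against 2.86, 22.2, 42.6 and 43.1 CPM (4.56 ± 0.50, adjusted p = 0.000857), with plate 5 highest and no overlap. BMP2/4 (KH.C4.125) at 79.8 ± 55.1 against 7.52 ± 7.41 CPM (3.63 ± 0.93, adjusted p = 0.0935) and the antagonist NOG/1/2/3/5 at 27.9 ± 20.5 against 0.677 ± 1.27 CPM (7.25 ± 1.80, adjusted p = 0.0828) did not pass. BMP2/4 (KH.C4.547) had no read in the 70 cells. On the lower side, ID1/2/3/4 (KH.C7.805), an inhibitor of basic helix-loop-helix factors and a BMP target in many animals, stood at 371, 443, 558 and 489 CPM against 2132, 3194, 2002 and 2265 CPM (-2.46 ± 0.28, adjusted p = 0.00105). Its cell median was 188 CPM, against 91.7 CPM in heart muscle cells and 2353 CPM in the remaining cells.

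TGFB2/3, a ligand of the TGF-beta branch, fell by 2.63 ± 0.44 on the log2 scale (adjusted p = 0.0112) and lost its call without plate 4 or 5. In all, 1 of 19 BMP and TGF-beta genes rose, 2 fell and 16 did not pass. Over all genes 0.814% were called higher and 1.29% lower. The list's median was 0.22, against -0.30 over all genes.

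Where 0.814% of all genes were called higher, 1 of 4 Hedgehog genes tested, the transcription factor GLI1/2/3, rose and 3 did not pass. It stood at 195, 238, 343 and 249 CPM against 29.9, 29.2, 26.4 and 82.8 CPM (2.65 ± 0.47, adjusted p = 0.016), without overlap, and lost its call without plate 4 or 5. PTCH1/2, the receptor that is itself a target of the pathway, stood at 133, 82.3, 111 and 75.5 CPM against 19.7, 15.0, 12.9 and 27.6 CPM (2.34 ± 0.54, adjusted p = 0.0586). It missed the threshold here and passed against the remaining cells at 3.25 (adjusted p = 0.00917). SMO, the signal transducer, was at 15.2 ± 10.3 against 10.2 ± 5.78 CPM (adjusted p = 0.994). The 6 Hedgehog genes summed to 430, 344, 455 and 344 CPM, against 64.9, 70.5, 68.1 and 127 CPM in all other cells. In heart muscle cells of plates 4, 5 and 7 they summed to 242, 145 and 281 CPM. PTCH1/2 stood there at 167, 10.4 and 78.8 CPM.

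In the Wnt list 1 of 23 genes rose, 2 fell and 20 did not pass. Over all genes 0.814% were called higher and 1.29% lower. FZD4, a Wnt receptor, rose from 7.01 ± 4.22 to 91.0 ± 37.3 CPM (3.67 ± 0.62, adjusted p = 0.0109), a call lost without plate 5. The ligand WNT2/4/5 (-6.06 ± 1.11) and the receptor FZD6 (KH.C1.543) (-5.94 ± 1.03) fell, each with at most 15 reads in the FOXF/MSX/THBS cells. Their calls were lost without plate 3 or 5, and without plate 4, 5 or 7. The ligand FGF16/20/22/3/9 fell by 3.93 ± 0.72, 1 of 10 FGF genes, and lost its call without plate 4 or 5.

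The ephrin-A ligand EFNA1/4, a membrane-bound cue, rose from 19.9 ± 21.6 to 352 ± 178 CPM (4.50 ± 0.53, adjusted p = 0.00119). No gene of the Notch or retinoic acid lists passed, of 7 and 3 tested, where 2.11% of all genes did, so these counts are near the background. The Notch genes had a median of 1.04 and summed to 1215 ± 170 CPM, against 636 ± 148 CPM in all other cells. HES1/4/5, a gene of this list, had a cell mean of 1368 CPM in FOXF/MSX/THBS cells. Cell means run over the cells of all 7 plates, so this value cannot be set against the sum of reads. Its cell mean was 713 CPM in heart muscle cells and 475 CPM in the remaining cells. Against the remaining cells it did not pass (0.72, edgeR adjusted p = 0.259).

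Of 19 other listed mesoderm factors tested 1 rose, 1 fell and 17 did not pass. Over all genes 0.814% were called higher and 1.29% lower. The factor that rose was DACH1/2, a co-repressor described in *Ciona* in the second heart lineage. It stood at 69.5, 203, 121 and 232 CPM against 0, 10.9, 0.170 and 5.87 CPM (6.34 ± 1.01, adjusted p = 0.0081) and its call held without any one plate. It was read in 25 of the 70 cells, so a minority carried the level. MMP21, described in the first heart lineage, was read in 13 cells and stood at 21.2 ± 23.2 against 24.8 ± 44.9 CPM (adjusted p = 0.936).

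TLX1/2 (5.04 ± 1.07, adjusted p = 0.0388) and MAB21L1/2, a regulator of organ growth in vertebrates (5.69 ± 1.23, adjusted p = 0.0422), rose, and each call was lost without any 1 of the 4 plates. The transporter SLC5A1/2/4/9 stood at 326, 580, 783 and 246 CPM against 9.23, 10.1, 15.7 and 14.1 CPM (5.10 ± 0.47, adjusted p = 0.000244), without overlap. CX52.6/7/9, a gap junction connexin, rose from 3.30 ± 5.43 to 80.8 ± 19.0 CPM (5.84 ± 1.07, adjusted p = 0.0176) and lost its call without plate 4.

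Of 6 factors listed for the pharyngeal muscle branch 3 fell and 3 did not pass, where 1.29% of all genes were called lower. EBF1/2/3/4 stood at 19.3, 27.8, 8.40 and 14.9 CPM against 522, 429, 329 and 388 CPM (-4.76 ± 0.41, adjusted p = 0.000147). MYF5, the myogenic factor, stood at 3.26 ± 4.34 against 82.8 ± 45.9 CPM (-5.47 ± 0.73, adjusted p = 0.00279). The plates of each did not overlap. Among those that did not pass were ISL1/2 at 193 ± 118 against 111 ± 17.7 CPM (adjusted p = 0.707) and TBX1/10 at 10.4 ± 14.4 against 10.6 ± 8.85 CPM (adjusted p = 0.866).

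All other cells include pharyngeal and heart muscle, and levels of summed reads can rest on a minority of cells. Of 31 sarcomere genes tested 11 fell, 1 rose and 19 did not pass (median -2.39). Over all genes 1.29% were called lower and 0.814% higher. LDB3, a Z-disc protein, stood at 5.52 ± 2.79 against 460 ± 99.8 CPM (-6.42 ± 0.50, adjusted p = 0.000104), and TNNT1/2/3 at 304 ± 70.3 against 3592 ± 1054 CPM (-3.65 ± 0.35, adjusted p = 0.000273). The 1 that rose was TPM1/2 (KH.C7.260), a tropomyosin, from 246 ± 101 to 969 ± 231 CPM (1.93 ± 0.31, adjusted p = 0.0081), a call lost without plate 4. CALML6, a calmodulin-like calcium sensor, stood at 98.4, 140, 150 and 58.9 CPM against 5217, 4488, 4712 and 3996 CPM (-5.55 ± 0.36, adjusted p = 2.89e-05). Cell means in FOXF/MSX/THBS, heart muscle and remaining cells were 225, 244 and 5781 CPM for CALML6. For LDB3 they were 11.2, 18.2 and 546 CPM, so both genes were low in heart muscle cells too. The exchanger SLC8A1/2/3 (-2.19) and the junctional protein JPH1/2/3 (-5.85) fell too, which made 3 of 18 calcium-handling genes. Their calls were lost without plate 3, 5 or 7 and without plate 3, 4 or 7.

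Of 9 genes tested from a list of dissociation stress genes 2 rose, 1 fell and 6 did not pass. Over all genes 0.814% were called higher and 1.29% lower. DUSP1/2/4/5, a phosphatase of MAP kinases, stood at 658, 764, 1326 and 693 CPM against 114, 134, 136 and 265 CPM (2.32 ± 0.39, adjusted p = 0.0112), and EGR1/4, an immediate-early zinc finger factor, at 627, 631, 875 and 791 CPM against 142, 194, 294 and 384 CPM (1.51 ± 0.30, adjusted p = 0.0289). Neither overlapped, and the calls were lost without plate 4 or 5 and without plate 3, 4 or 5. The small heat shock gene HSPB1 fell by 5.52 ± 0.49. The 11 genes of the list summed to 5721 ± 921 CPM in FOXF/MSX/THBS cells, 5472 ± 1500 CPM in heart muscle cells and 2841 ± 98.7 CPM in the remaining cells. Whether handling had a part in any difference above was not tested.

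Markers of other cell types the sort could hold gave no higher call in FOXF/MSX/THBS cells, where 0.814% of all genes were called higher, so counts of 0 in lists of this size are near the background. None of 61 ciliary, 11 neural and 2 epidermal or endodermal genes passed, and 1 of 10 blood and immune genes, MBL1/2 (KH.C5.404), was lower (-5.62 ± 0.52). The ciliary sum ran from 704 to 1317 CPM in plates 4, 5 and 7 and was 4576 CPM in plate 3, against 611 to 1827 CPM in all other cells. Of the ciliary list 6 of 85 genes had no read in the 70 cells, among them DNAH17/9 and DNAH10 (KH.S873.2), 3 of 20 neural genes, 7 of 30 blood and immune genes and 5 of 12 epidermal and endodermal genes, among them CDX1/2/4.

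None of 40 cell cycle genes and none of 68 cytosolic ribosome genes passed, where 2.11% of all genes did, so these counts are near the background. Of the cell cycle values 4 of 40 were above 0, with a median of -1.02 against -0.30 over all genes. Of the oxidative phosphorylation values 7 of 48 were above 0 (median -0.61). Of 48 oxidative phosphorylation genes COX4I1/2 fell (-1.86 ± 0.36, adjusted p = 0.0245), a call lost without plate 3, 4 or 5. The replication clamp PCNA stood at 48.2, 258, 90.6 and 260 CPM against 331, 241, 280 and 172 CPM (adjusted p = 0.608), with overlap, and the ferritin FTMT at 7118 ± 1393 against 5450 ± 2523 CPM (adjusted p = 0.69).

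Beyond the losses without 1 plate, other settings ended calls of the 74 genes called and named by rule or afterwards against all other cells. Without the plate as replicate block 11 were lost, among them CX52.6/7/9, GATA4/5/6, SLC8A1/2/3, EGR1/4, LAMB1/2 and HMCN1 (KH.C4.506). With a muscle limit of 300 CPM 21 were lost, among them ECM2, MAB21L1/2, TLX1/2, SCUBE1/2/3, GATA4/5/6, JPH1/2/3, SLC8A1/2/3, FZD4, FGF16/20/22/3/9, GLI1/2/3, COX4I1/2, EGR1/4, MATN1/3/4, SPARC (KH.C14.398) and HMCN1 (KH.C4.506). With plates of at least 3 cells per side 24 were lost, among them ECM2, SVEP1 (KH.C5.620), CX52.6/7/9, TLX1/2, SCUBE1/2/3, GATA4/5/6, ID1/2/3/4 (KH.C7.805), SLC8A1/2/3, TGFB2/3, FZD4, EGR1/4, MATN1/3/4, TPM1/2 (KH.C7.260) and SPARC (KH.C14.398). With cells of 2000 genes or more, which left plates 4 and 7, 41 were lost, among them LECT1, MYF5, DUSP1/2/4/5, EMR1/2/3 and CSMD1/2/3.

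**Figure D4:**
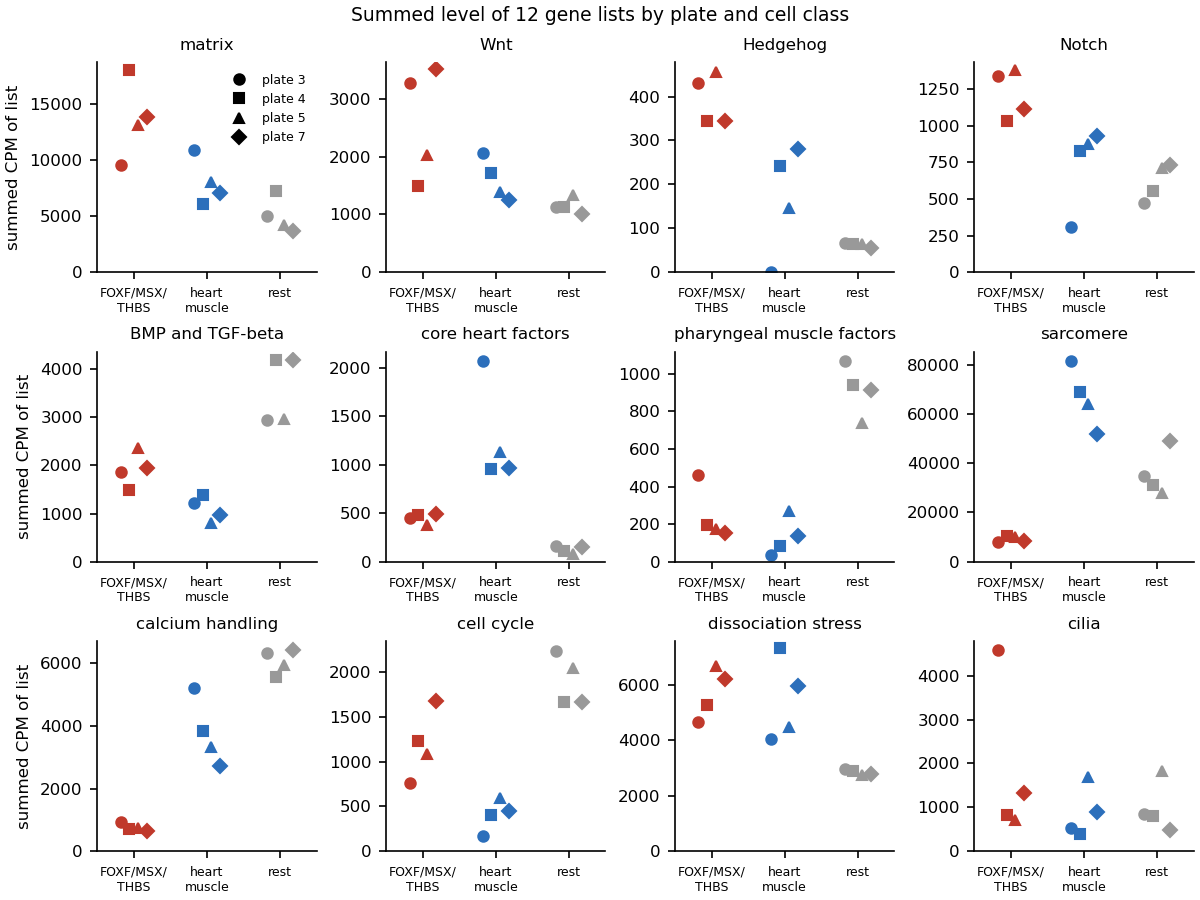
Summed CPM (linear axes from 0) of 12 gene lists by plate (symbols) in FOXF/MSX/THBS cells (red), heart muscle cells (blue, 2 cells in plate 3) and remaining cells (grey); genes used for choosing cells are left out. Matrix sums are highest in the red symbols in plates 4, 5 and 7, and calcium-handling sums are lowest in them in all 4 plates.

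Heart muscle cells are the other heart cells of the same plates. To ask how the FOXF/MSX/THBS cells differ from them, the same test was run in plates 4, 5 and 7, with 8, 8 and 17 heart muscle cells. Of 6703 genes 29 were called higher (0.433%) and 75 lower (1.12%) in FOXF/MSX/THBS cells, together 1.55%. Plate values did not overlap in 11.7% of genes on the higher and 5.46% on the lower side, and the median of all genes was 0.52. With a muscle limit of 300 CPM in place of 1000 CPM, which moves cells of 300 CPM or more to the muscle side and brings in plate 3 with 5 cells on each side, the counts were 4 and 45. MYH1/2 and TPM1/2 (KH.C3.661) chose both sides, so the lower sarcomere genes go with the choice: 16 of 29 fell, 1 rose and 12 did not pass (median -3.38).

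Among these, MYL10/2/5/7, a regulatory myosin light chain, stood at 968, 875 and 321 CPM against 17116, 17647 and 9234 CPM in plates 4, 5 and 7 (-4.45 ± 0.28), and TNNI1/2/3, the inhibitory troponin, at 2296, 2583 and 2397 CPM against 14478, 12491 and 11465 CPM (-2.40 ± 0.24). Where 1.12% of all genes were called lower, 4 of 13 calcium-handling genes tested fell and 9 did not pass. Of the 13 values 6 were above 0, with a median of -0.23 against 0.52 over all genes. Those that fell included the buffer CASQ1/2 at 59.9 ± 29.2 against 1340 ± 171 CPM (-4.59 ± 0.50, SD, n = 3 plates), the release channel RYR1/2/3 at 48.5 ± 46.3 against 623 ± 297 CPM (-4.09 ± 0.74) and JPH1/2/3 at 0.669, 0 and 2.33 CPM against 292, 82.9 and 98.6 CPM (-7.45). No plates overlapped. Outside the contractile apparatus, the lipase LIPI (-7.02 ± 0.84) and the acetylcholine receptor subunit CHRNA1 (-2.95 ± 0.64, lost without plate 7) were lower. The JPH1/2/3 call was lost without plate 4. The organic anion transporter SLCO2B1 had 1 read in the FOXF/MSX/THBS cells and 927 in the heart muscle cells of plates 4, 5 and 7.

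Matrix genes split between the 2 kinds of heart cell. Of 57 tested 6 rose, 3 fell and 48 did not pass, and the list's median of 0.42 lay below the 0.52 of all genes. Over all genes 0.433% were called higher and 1.12% lower. COL9A1/2/3 stood at 2302, 2244 and 988 CPM against 42.1, 48.3 and 110 CPM (4.85 ± 0.54), COL1A1/2 at 167 ± 98.1 against 6.54 ± 4.31 CPM (4.57 ± 1.11) and TIMP4 at 664, 1299 and 1813 CPM against 3.12, 200 and 271 CPM (3.84 ± 0.66). TIMP1/2/3/4 rose by 2.10 ± 0.39, and NID1/2, nidogen of the basement membrane, by 4.56 ± 1.03 with plates that overlapped. With the muscle limit at 300 CPM, COL9A1/2/3 was at 1.91 (adjusted p = 0.792) and COL1A1/2 at 1.75 (adjusted p = 0.999), neither called, whereas TIMP4 (2.51) and TIMP1/2/3/4 (1.39) kept their calls. Without the plate as replicate block TIMP4 (adjusted p = 0.301) and TIMP1/2/3/4 (adjusted p = 0.101) were not called. The COL1A1/2 call was lost without plate 5 or 7, and that of NID1/2 without plate 4 or 7. HMCN1 (KH.C6.50) passed at 6.70 ± 1.47 but was higher in 2 of 3 plates. FBLN1/2, a fibulin (154 ± 88.3 against 1111 ± 563 CPM), SPARC (KH.C13.31) (23.5 ± 24.4 against 492 ± 216 CPM) and ADAMTSL5 (-3.18, lost without plate 7) were on the heart muscle side.

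Signals and regulators that also separated them included BMP5/6/7 at 455, 981 and 488 CPM against 9.36, 15.0 and 116 CPM (4.63 ± 0.78) and LECT1 at 270, 445 and 136 CPM against 1.56, 5.76 and 0.660 CPM (7.01 ± 0.93). DACH1/2 stood at 203, 121 and 232 CPM against 1.56, 0 and 15.4 CPM (5.98 ± 1.22, adjusted p = 0.0032). SALL1/3/4, a zinc finger factor of organ development, rose by 6.37 ± 1.54 (adjusted p = 0.02) and lost its call without plate 4 or 7. In heart muscle cells 1 cell gave 78.4% of the BMP5/6/7 reads and 1 cell 93.0% of the DACH1/2 reads. With the muscle limit at 300 CPM BMP5/6/7 (1.73, adjusted p = 0.176), LECT1 (1.96, adjusted p = 0.963) and DACH1/2 (3.14, adjusted p = 0.684) were not called, and without the plate as replicate block BMP5/6/7 (adjusted p = 0.0834) and DACH1/2 (adjusted p = 0.103) were not. MATN1/3/4 (2.76 ± 0.77, adjusted p = 0.0658) and GLI1/2/3 (1.44 ± 0.66, adjusted p = 0.674) did not pass.

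LPHN1/2 (KH.C11.269) and ITIH1/3/4/5/6, an inter-alpha-trypsin inhibitor heavy chain, also passed, but 1 cell gave 71.9% of the LPHN1/2 (KH.C11.269) reads and 1 cell 62.9% of the ITIH1/3/4/5/6 reads of the FOXF/MSX/THBS side. ITIH1/3/4/5/6 lost its call without plate 7 and without the plate as replicate block (4.39, adjusted p = 0.514), and LPHN1/2 (KH.C11.269) with the muscle limit at 300 CPM (0.41, adjusted p = 0.999). In plates 4, 5 and 7, LIM2 (KH.C1.808), EMR1/2/3 and KPNA2/7 had 1639, 838 and 948 reads in the FOXF/MSX/THBS cells and 1 read each in the heart muscle cells.

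Of 31 cell cycle genes tested against heart muscle cells 1, PCNA, rose and 30 did not pass, where 0.433% of all genes were called higher. PCNA stood at 258, 90.6 and 260 CPM against 4.68, 3.45 and 30.2 CPM (4.42 ± 0.99, adjusted p = 0.00877), a call lost without plate 4 or 7. CKS1/2, a subunit of cyclin-dependent kinase complexes that is not in the list and was named after its value was seen, stood at 248, 275 and 189 CPM against 6.24, 12.7 and 55.0 CPM (3.82 ± 0.94, adjusted p = 0.0229), a call lost without plate 4. Without the plate as replicate block neither PCNA (adjusted p = 0.115) nor CKS1/2 (adjusted p = 0.154) was called, nor was either after thinning to 20000 reads (adjusted p = 0.287 and 0.609). With the muscle limit at 300 CPM PCNA kept its call and CKS1/2 did not (2.86, adjusted p = 0.323). CKS1/2 reads were found in 22.4% of the thinned FOXF/MSX/THBS cells and 21.1% of the thinned heart muscle cells. For PCNA these shares were 32.8% and 5.26%. The list's median was 1.84 against 0.52 over all genes, and 29 of 31 values were above 0. The 43 cell cycle genes summed to 1189 ± 377 CPM in FOXF/MSX/THBS cells, 402 ± 174 CPM in heart muscle cells and 1905 ± 287 CPM in the remaining cells.

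The comparisons against all other cells and against heart muscle cells share the FOXF/MSX/THBS cells, so their calls are given side by side. Among genes tested in both, 14 were called higher in each, including BMP5/6/7, COL1A1/2, COL9A1/2/3, TIMP1/2/3/4, TIMP4, DACH1/2, LECT1, EFNA1/4, SLC5A1/2/4/9 and EMR1/2/3, and 17 were called lower in each, most of them contractile genes such as TNNT1/2/3 and MYL10/2/5/7. Against heart muscle cells with the muscle limit at 300 CPM, EFNA1/4 (1.55, adjusted p = 0.445) and SLC5A1/2/4/9 (1.70, adjusted p = 0.61) were not called. EFNA1/4 was also not called without the plate as replicate block (adjusted p = 0.206) or without plate 7, and EMR1/2/3 lost its call there at that limit and without plate 5 or 7. TPM1/2 (KH.C7.260) was higher in each (1.93 and 2.65), and against heart muscle cells its call was lost with the muscle limit at 300 CPM (1.62, adjusted p = 0.0733). Ci-R1CiGC27a04 was higher against all other cells (2.43) and lower against heart muscle cells (-1.46), and TCEAL3/5/6 the reverse (-1.43 and 2.32). Each of these calls was lost without plate 4, and against all other cells also without plate 3.

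Of 59 genes called and named against heart muscle cells, 26 lost their call with the muscle limit at 300 CPM, including, beside those given above, LIM2 (KH.C1.808), KPNA2/7, SALL1/3/4, NID1/2 and TCEAL3/5/6. Without the plate as replicate block 17 were lost, including NID1/2, ADAMTSL5, HMCN1 (KH.C6.50) and TCEAL3/5/6. After thinning to 20000 reads 11 were lost, including SALL1/3/4, DACH1/2, ADAMTSL5, COL1A1/2, EFNA1/4 and TCEAL3/5/6.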

How the data were processed

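Raw read counts per gene and barcode of the 7 plates were used as the authors deposited them. Per the file headers, barcodes were demultiplexed and read 2 was aligned with TopHat; featureCounts is named in the submitters' processing notes. Versions, genome build and strand setting are not given in the sources used here. There were no molecular identifiers. Of 15231 gene models 11061 carry an orthologue-style name, used as given. Many names stand for paralogue families whose reads may be split. The 5 reporters were left out of totals, and the 5 genes used to choose cells were left out of tests and lists.

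Reads were summed per plate and side and fitted in edgeR 4.0.16 (R 4.3.3; limma 3.58.1) by quasi-likelihood, with plate as a block because both sides come from the same plate, TMM, filterByExpr and Benjamini-Hochberg adjustment at 0.05. Levels are CPM of summed reads, with SD over plates. Plates with under 5 cells on a side were left out. Each SE was derived from the fold change and its F statistic. Prior degrees of freedom were 7.35 against all other cells and 29.3 against heart muscle cells, with 3 and 2 residual, so spread was largely pooled over genes. The fits were tested on simulated data, with changes set in genes of at least 100 mean reads. Of 100 changes of 4-fold, 18 were recovered against all other cells and 5 against heart muscle cells. Of 100 changes of 32-fold, 86 and 61 were recovered. A gene that did not pass may therefore still differ by 4-fold. Of the unchanged genes, 5 of 9037 and 0 of 6971 were called. Alternatives used DESeq2 1.42.0, limma on log2(CPM + 1) of cell means, other normalization, filters and thresholds.

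By rule, genes named were the 10 highest and 10 lowest fold changes called in every plate's direction, up to 4 of each of 20 lists and a set of lineage genes. Other listed genes that passed, genes called in both comparisons, and CKS1/2 were named after their values were seen. The cells, lists and tests were chosen with earlier results of these data known.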

Additional observations from a re-analysis of the deposited data

Results flagged for a closer look

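Of 177 sets of 4 plate values, 24 had 1 plate far from the other 3 by Dixon's test. For normal values chance gives about 1 in 20. Where 3 plates had no read, as for HHIPL1/2 and DSCAM/2/3/4 (KH.C3.390) below, any read in the other is flagged. The count of 24 therefore cannot be set against that rate. In FOXF/MSX/THBS cells, plate 5 stood out with EMR1/2/3 at 173 CPM (the next plate 66.3), DUSP1/2/4/5 at 1326 CPM (764) and LIM2 (KH.C1.808) at 356 CPM (112), plate 7 with CDH-4 at 36.6 CPM, HHIPL1/2 at 2.48 CPM, SPARC (KH.C13.31) at 51.6 CPM and HMCN1 (KH.C4.506) at 232 CPM, plate 3 with FZD6 (KH.C1.543) at 3.86 CPM and plate 4 with DSCAM/2/3/4 (KH.C3.390) at 1.004 CPM. Among all other cells, plate 7 stood out with CDH-4, a cadherin, at 5566 CPM against at most 3.50 CPM elsewhere. One cell gave 57.7% of these CDH-4 reads, and without plate 7 the gene was too low to be tested, so its call as lower (-6.86) rests on that plate. Plate 7 of the other cells was also high in TIMP4 (185 CPM), GLI1/2/3 (82.8 CPM), DUSP1/2/4/5 (265 CPM), MMP21 (92.1 CPM), Ci-R1CiGC27a04 (2182 CPM) and the muscle genes MYL10/2/5/7 (14335 CPM), TTN (KH.C9.36) (725 CPM) and SMTN (299 CPM), and it held 17 heart muscle cells of 44. Plate 5 of the other cells stood out with CX52.6/7/9 at 11.4 CPM, NOG/1/2/3/5 at 2.59 CPM, ECM2 at 0.933 CPM and, on the low side, BOLL at 14.2 CPM. Plate 3 stood out with WBSCR27 (KH.C1.381) at 80.2 CPM and plate 4 with LAMB1/2 at 449 CPM.

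Reporter sequences were not part of any comparison. LacZ had 89 reads in 6 of the 70 FOXF/MSX/THBS cells, 22 reads in 3 of 40 heart muscle cells and 788 reads in 31 of 205 remaining cells. GFP had no read in the 70 cells (median 85072 reads), which allows a share of up to 4.29% of cells with a read, counting error only, and reads in 26 of 205 remaining cells (median 181191 reads). These depths differ, and their part was not tested.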

How the results depend on the processing

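With plates as the only replicates and 4 or 3 of them compared, counts of calls depended on the fit. Against all other cells, 70 genes higher and 111 lower became 295 and 464 with DESeq2, 128 and 239 with limma on mean CPM, and 118 and 182 with no filter on low counts. The higher genes became 34 with plates of at least 3 cells per side, 33 with a muscle limit of 300 CPM and 137 without heart muscle cells on the other side, where all 70 remained. The lower genes became 59 with cells of 2000 genes or more, which left plates 4 and 7 and kept 15 of the 70 higher genes among its 50. Against heart muscle cells, 29 and 75 became 173 and 173 with DESeq2 and 4 and 45 with a muscle limit of 300 CPM, where cells of 300 CPM or more count as muscle and plate 3 enters, and the higher genes became 14 without the plate as replicate block and 14 with cells thinned to 20000 reads. Leaving out 1 plate gave 26 (without plate 4) to 80 higher and 74 to 100 lower against all other cells, and 18 (without plate 7) to 64 (without plate 5) higher and 47 (without plate 7) to 84 lower against heart muscle cells. Without plate 5, 33 were higher against all other cells. Without the plate as replicate block, 65 were higher and 140 lower there. The causes were not tested. Among named genes with a call under either setting 2 changed direction: FTMT, to -0.44 with limma on mean CPM against 0.36, and LIPI against all other cells, to 1.04 without heart muscle cells on the other side against -4.07. Named genes called under neither, such as MMP21 against all other cells and HAND/1/2 against heart muscle cells, also crossed 0. Of 74 named calls against all other cells 40 held without each plate in turn and 24 in every alternative that tested them, and of 59 against heart muscle cells 37 and 22. The mean share of 19.5% ran from 11.9% (cells of 2000 genes or more) to 21.1% under other thresholds and from 16.6% to 21.5% without 1 plate. At least 10 cells per side, and cells of 2000 genes or more, left too few plates for the heart muscle comparison and were not run there.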
